A study of Mus musculus with 4 samples.

Results

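RBPJ binding was examined at 40 lysosomal genes in alveolar macrophages (AMs), which live in the airspace of the lung. The members were 10 cathepsins, 14 other hydrolases, 7 subunits of the vacuolar proton pump (V-ATPase) and 9 membrane or accessory genes, chosen by symbol from 21755 protein-coding genes in the GENCODE annotation of the mm10 mouse genome, and all 40 symbols were found. The cells were WT AMs of C57BL/6J mice, 9 weeks old according to the methods, taken by bronchoalveolar lavage and cell sorting and profiled by HT-ChIPmentation, in which sequencing adapters are inserted while the chromatin is still on the antibody beads. There were 2 libraries made with an antibody against RBPJ and 2 input libraries, all from the same unperturbed cells, so no mutant, treatment or time was compared. Each RBPJ library had its own list of peaks, whereas the inputs entered only through the peak calling. The labels do not say that the libraries came from separate animals, so their spread may be technical.

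Lysosomes are acidic organelles in which hydrolases degrade proteins, lipids, glycans and nucleic acids. The V-ATPase pumps protons into the lumen and sets the acid pH that the hydrolases need, and membrane proteins protect the boundary and export the products. AMs depend on this system to degrade surfactant lipids, inhaled particles and microbes. RBPJ is the DNA-binding factor of the Notch pathway, and lysosomal genes as a class are known targets of TFEB and related factors, which bind an E-box called the CLEAR element.

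A peak near a gene was described by its fold, the enrichment over background that the peak caller gave at its summit, the point of highest signal. A consensus region was a stretch of overlapping peaks that held at least 1 peak of each library, and its folds are given for replicate 1 and then replicate 2. The lower fold is the smaller of both values. A promoter region was a consensus region that touched the 1 kb on either side of a transcription start site (TSS). Its folds are those of the strongest peaks in the whole region, also where their summits lay outside that 1 kb. The lists held 106228 peaks (median fold 4.06) and 47224 peaks (median fold 4.35), which formed 25454 consensus regions with a median lower fold of 4.69. Promoter regions were present at 8 of 10 AM marker genes, at 0 of 6 lymphocyte, 0 of 6 alveolar type II cell and 0 of 6 neutrophil genes.

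Promoter regions were present at 35 of the 40 lysosomal genes (87.5%), beside 33.7% of all protein-coding genes. They comprised 9 of 10 cathepsins, 11 of 14 other hydrolases, all 7 V-ATPase subunits and 8 of 9 membrane or accessory genes. The 5 members without one were the protease gene Ctsf, the hydrolase genes Ppt1, Smpd1 and Tpp1 and the tetraspanin gene Cd63. In the single lists, 38 members had a promoter peak in replicate 1 (46.1% of all genes) and 36 had one in replicate 2 (37.5% of all genes). These shares are descriptions without a test, because the genes were picked for their function with earlier results known. Expression was not measured in these libraries, and the share among genes as active as the members was not tested.

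**Figure D1:**
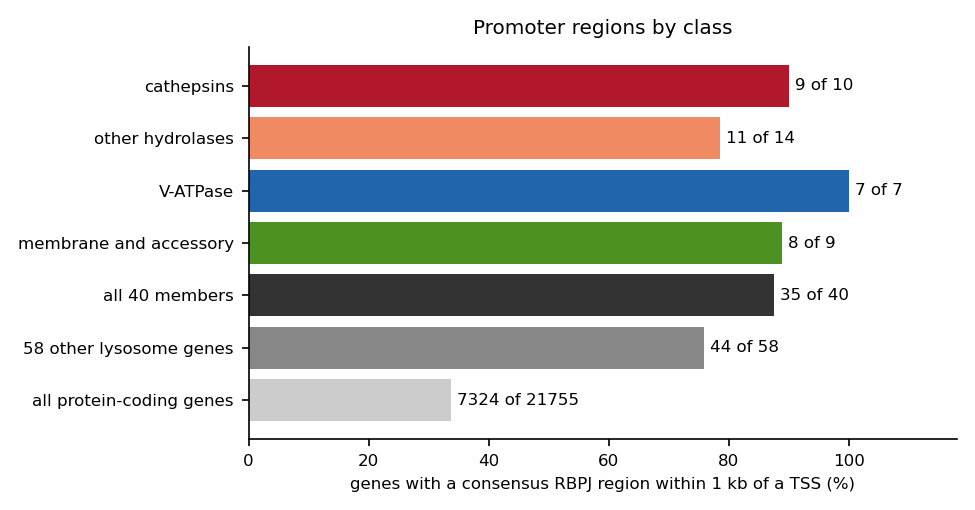
Share of genes (%) with a consensus RBPJ region within 1 kb of a TSS, with the count beside each bar. All 4 classes lay between 78.6% and 100%, the other lysosome genes at 75.9% and all protein-coding genes at 33.7%.

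Base composition of the promoter moved with these shares, so the members were also read within promoter types. A promoter was called CpG-rich when the 500 bp on either side of its most upstream TSS held at least 50% GC and a ratio of observed to expected CpG of at least 0.6. A region at another start of the gene, as in Atp6v1h, was counted under the composition at the most upstream TSS. Among CpG-rich promoters, 19 of 20 members had a promoter region, beside 55.4% of all such genes. Among the others, 16 of 20 members had one, beside 14.8%. All 7 cathepsins with a promoter of the second type had a region, and the only CpG-rich member without one was the cathepsin gene Ctsf.

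Regions were also abundant away from the promoters of the members. At least 1 region overlapped the body of 35 members (37.3% of all genes had one), and 35 members were the nearest protein-coding gene to some region (40.5% of all genes). Median gene length was 18.1 kb for the members and 17.4 kb for all genes. By any of the 3 assignments 37 members had a region (45.0% of all genes had one), the exceptions being Ctsf, Smpd1 and Cd63. In total 196 distinct regions were assigned to members, with a median of 4 per member and 2 per gene over all genes with any region. Of these, 50 lay at a promoter of their member and 146 did not. Of the 146, 65 had their summit upstream, 65 in an intron, 14 downstream and 2 in an untranslated exon. The 146 had a median distance of 8801.5 bp from the nearest TSS of their member, and 38 were over 20 kb away. Some of the 146 lay within 1 kb of a TSS of another gene, as did regions of Atp6v0c at Amdhd2 and the region of Tpp1 at Taf10. Assignment by position does not show which gene a region acts on.

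**Figure D2:**
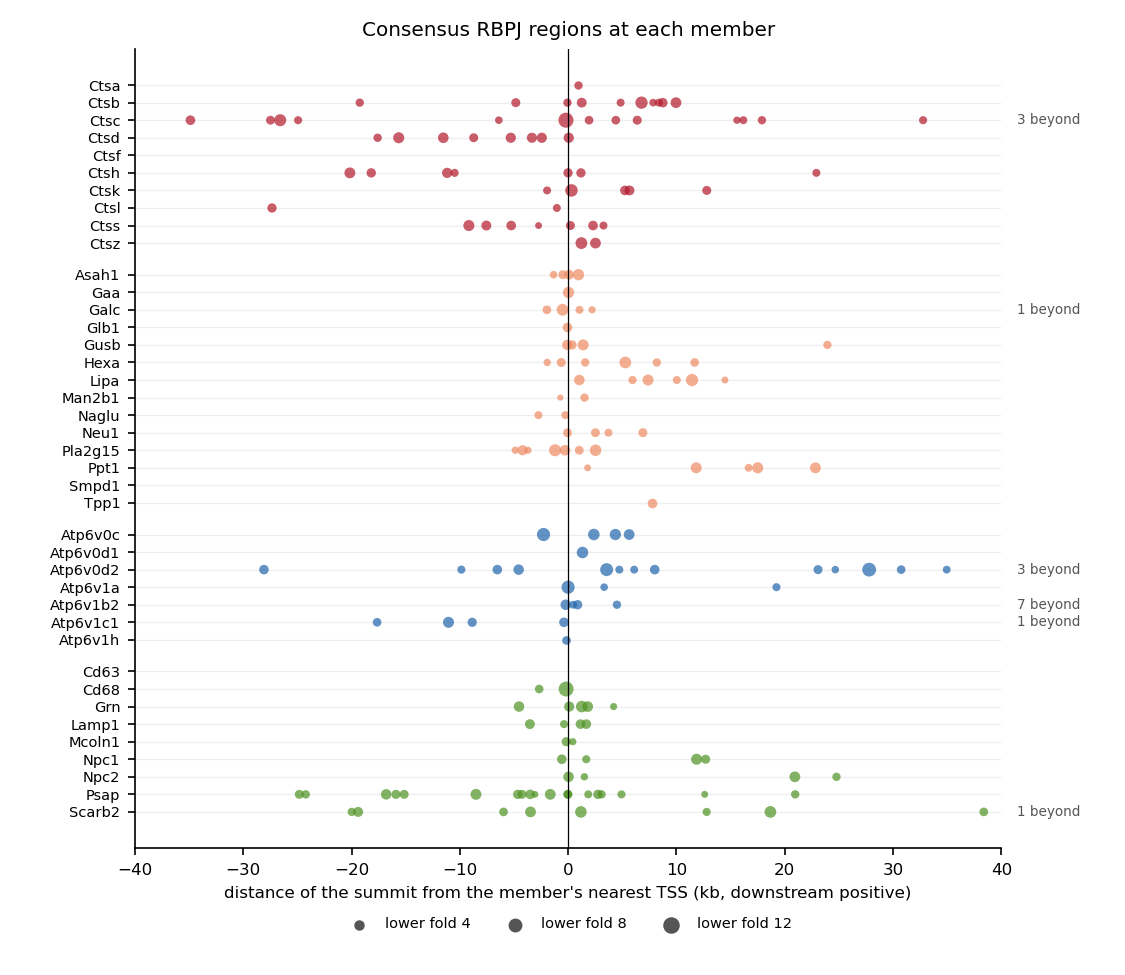
Consensus regions at each member by distance of the summit from the nearest TSS of that member (kb, downstream positive), with symbol area proportional to the lower fold. Regions over 40 kb away, 16 in 6 members, are given as counts at the right, and Ctsf, Smpd1 and Cd63 have no symbol.

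The sequences under the strongest regions are shown first, because the values below refer to them. They are genome sequence of GRCm38 (mm10), read from RefSeq's copy of the assembly on the plus strand around the summit, and 32 of the 40 members had an entry in the RefSeq promoter table used to choose them. The first 4 are the region with the highest lower fold in each class among these 32 members. Atp6v0c tied in lower fold with Atp6v1a, whose window follows further on. Capitals mark matches on either strand to TGGGAA (the RBPJ core), CACGTG (the E-box), TGANTCA (AP-1), GAGGAAGT (PU.1 and other ETS factors), CCGCCC (SP and KLF factors) and AGGTCA (nuclear receptors).
Ctsc, chr7:88277786-88277986: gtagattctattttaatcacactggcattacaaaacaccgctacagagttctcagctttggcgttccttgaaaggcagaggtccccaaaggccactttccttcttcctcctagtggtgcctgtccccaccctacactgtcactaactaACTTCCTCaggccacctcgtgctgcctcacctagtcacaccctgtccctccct
Lipa, chr19:34515930-34516130: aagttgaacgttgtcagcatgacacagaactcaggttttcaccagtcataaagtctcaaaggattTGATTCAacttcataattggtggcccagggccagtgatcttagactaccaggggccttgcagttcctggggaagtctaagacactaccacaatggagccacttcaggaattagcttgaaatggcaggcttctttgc
Atp6v0c, chr17:24171848-24172048: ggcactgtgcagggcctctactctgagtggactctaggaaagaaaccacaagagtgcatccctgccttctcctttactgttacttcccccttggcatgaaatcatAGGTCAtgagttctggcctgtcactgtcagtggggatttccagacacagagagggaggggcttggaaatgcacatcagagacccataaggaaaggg
Cd68, chr11:69666236-69666436: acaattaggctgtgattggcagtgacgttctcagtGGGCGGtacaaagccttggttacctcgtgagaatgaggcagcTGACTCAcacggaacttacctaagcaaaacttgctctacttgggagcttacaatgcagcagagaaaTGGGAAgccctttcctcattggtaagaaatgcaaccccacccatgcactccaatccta

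Of these windows only that of Cd68 held the RBPJ core, 43 bp from the summit, together with an AP-1 match 23 bp to the other side and an SP or KLF match 65 bp from it. The window of Ctsc, the strongest region of all members, held an ETS match 48 bp from the summit and no RBPJ core. The next 4 windows are shown because they hold an RBPJ core at the summit (Npc2) or an extended E-box. The extended form was TCACGTGA in Ctsa and Atp6v1a and GTCACGTG in Glb1. The windows of Ctsa and Atp6v1a were cut short to keep untranslated sequence to 30 bases.
Npc2, chr12:84752111-84752311: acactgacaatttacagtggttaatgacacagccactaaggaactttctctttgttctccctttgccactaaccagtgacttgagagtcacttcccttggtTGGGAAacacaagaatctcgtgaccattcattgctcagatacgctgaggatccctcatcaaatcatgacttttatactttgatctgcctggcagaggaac
Ctsa, chr2:164833767-164833896: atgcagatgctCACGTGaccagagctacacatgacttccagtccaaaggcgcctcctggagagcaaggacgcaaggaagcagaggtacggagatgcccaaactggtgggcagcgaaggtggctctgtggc
Glb1, chr9:114400884-114401084: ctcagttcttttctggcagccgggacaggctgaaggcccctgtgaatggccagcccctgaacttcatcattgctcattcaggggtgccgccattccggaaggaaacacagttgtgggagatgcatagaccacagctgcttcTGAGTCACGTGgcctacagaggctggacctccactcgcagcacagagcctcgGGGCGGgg
Atp6v1a, chr16:44139276-44139407: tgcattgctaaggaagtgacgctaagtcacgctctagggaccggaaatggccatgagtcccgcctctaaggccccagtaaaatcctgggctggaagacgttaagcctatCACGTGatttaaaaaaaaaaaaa

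Npc2, which hands cholesterol to Npc1 for export from the lysosome, had the RBPJ core 1 bp from the summit of its strongest region (8.33 and 6.69), which lay downstream of the gene, 20941 bp from the TSS. In Ctsa the E-box lay 18 bp from the summit, in Glb1 46 bp and in Atp6v1a 78 bp.

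Cathepsins are the proteases of the lysosome. The strongest member of the class was Ctsc, a dipeptidyl peptidase that activates the serine proteases of immune cells. Its promoter region (chr7:88276641-88279527) was 2887 bp wide, with folds of 18.3 and 13.1, and the summit lay 199 bp upstream of the TSS. These folds exceeded 99.8% and 99.3% of the peaks in their lists. Ctsc had 16 regions in all, spread from 70538 bp upstream to 32782 bp downstream of the TSS, and the next strongest was 26589 bp upstream (9.42 and 8.37).

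The other cathepsin promoters formed a graded series. Ctsk, a collagen-degrading protease best known from osteoclasts, had folds of 11.4 and 9.04 in a region of 2639 bp with its summit 308 bp downstream of the TSS. Ctsz, a carboxypeptidase, had folds of 11.0 and 8.03 in a region of 3349 bp. Both regions were above at least 93.9% of the peaks in each list. Ctsd, the main aspartic protease of lysosomes, had promoter folds of 6.09 and 7.36 and a stronger region 15645 bp upstream (12.9 and 7.03). Ctsb, an abundant cysteine protease, had promoter folds of 5.58 and 6.69, and its strongest region was intronic, 6778 bp into the gene (10.4 and 8.70). Ctsh, an aminopeptidase, had 5.84 and 5.02 at the promoter and 6.85 and 7.70 in a region 20157 bp upstream. In these 3 genes the strongest region lay away from the promoter.

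At the lower end of the class the libraries diverged. Ctss, which trims the invariant chain for antigen presentation, had promoter folds of 8.63 and 4.69. The carboxypeptidase gene Ctsa had 7.61 and 4.02, in a region of 385 bp that also lay within 1 kb of the TSS of Neurl2, which was its nearest gene. In replicate 1 these folds were above 93.3% and 90.6% of the peaks, and in replicate 2 above 54.6% and 29.0%. The region of Ctss with the highest lower fold lay away from its promoter, 9165 bp upstream, with closer folds of 7.61 and 7.03. Ctsl, a broadly expressed endoprotease, had folds of 4.06 and 3.68 in 139 bp, the lowest among the strongest promoter regions of the cathepsins. Its summit was 1042 bp upstream of the TSS, and a stronger region (6.31 and 5.02) lay 27349 bp upstream. Nearer the TSS, both lists held stronger Ctsl peaks, chr13:64370542-64370900 (replicate 1, 5.84) and chr13:64370353-64370503 (replicate 2, 5.36). Because those peaks did not overlap, they formed no consensus region, and the low folds above leave them out. Ctsf had no promoter peak in either list.

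The other hydrolases are described here by substrate. Among the lipid-degrading enzymes, Pla2g15, the lysosomal phospholipase A2 that AMs use on surfactant phospholipid, had the strongest promoter region, with folds of 14.7 and 8.37 and a summit 1208 bp upstream of the TSS. Galc, which cleaves galactosylceramide, had 10.1 and 8.03 in a region 516 bp upstream. Asah1, the acid ceramidase, had 8.88 and 7.36. Lipa, the acid lipase that hydrolyzes cholesteryl esters, had promoter folds of 9.64 and 6.36 in a region of 3656 bp and its strongest region in an intron (11.2 and 8.70), the window shown above. By contrast Smpd1, the acid sphingomyelinase, had no consensus region, and its only promoter peak was in replicate 1 (fold 4.57).

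The glycan-degrading enzymes ranged from clear to marginal. Gaa, which breaks down glycogen, was among the 6 members with the higher promoter fold in replicate 2 (7.36 and 9.71), with its summit 34 bp from the TSS. Gusb, the beta-glucuronidase, had 8.63 and 7.03 and 3 separate promoter regions. Hexa, a subunit of beta-hexosaminidase, had 7.87 and 4.69 at the promoter and a stronger intronic region (9.64 and 7.92). Neu1, a sialidase, had 6.60 and 4.52. Glb1, the beta-galactosidase, had a single narrow region of 250 bp with folds of 5.58 and 5.28, which also lay within 1 kb of the TSS of Tmppe. Naglu, an enzyme of heparan sulfate breakdown, had 5.84 and 3.68. Man2b1, an alpha-mannosidase, had the weakest promoter region of all members, with folds of 2.19, a value above 0.189% of the replicate 1 list, and 4.86. Nearer the TSS, the replicate 1 list held a stronger Man2b1 peak (chr8:85083044-85083338, fold 5.33). No replicate 2 peak overlapped it, so it formed no consensus region and the low fold leaves it out.

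The remaining pair of hydrolases had regions away from the promoter. Ppt1, which removes palmitate from proteins and is a locus displayed for RBPJ in the study, had 3 promoter peaks in replicate 1 and 1 in replicate 2 that did not overlap, so no promoter region was called. All 5 of its regions were intronic. Besides the strongest one, 17511 bp into the gene, there was a region of 2943 bp at 22838 bp (6.76 and 7.03) and another at 11827 bp (7.95 and 6.93). Tpp1, a tripeptidyl peptidase, had promoter peaks only in replicate 1, with folds up to 6.85, and a region at its downstream end (7.36 and 5.36) that belonged by position to the neighboring gene Taf10.

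The 7 V-ATPase subunits among the members all had a promoter region, beside 9 of 13 other V-ATPase genes. In the catalytic sector, Atp6v1a, the ATP-hydrolyzing subunit, had folds of 14.5 and 10.0 in a region of 4038 bp (chr16:44137660-44141697) with its summit 2 bp from a TSS, and this region also lay within 1 kb of the TSS of Naa50. Atp6v1b2, a nucleotide-binding subunit, had 10.4 and 6.36 at a promoter region that it shared with Slc18a1. Atp6v1c1, a subunit of the stalk, had 6.60 and 5.36 and a stronger region 11047 bp upstream (11.7 and 7.03). Atp6v1h, a regulatory subunit, had 1 region (5.09 and 4.35), whose lower fold was the smallest of the strongest promoter regions of this class.

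In the membrane sector, Atp6v0d2, an isoform prominent in macrophages and osteoclasts, had a promoter region of 6166 bp, the widest of the members. The folds of this region were 10.9 and 9.71, with the summit 3558 bp downstream of the TSS. The strongest replicate 2 peak that touched the 1 kb around the TSS had a fold of 5.69. The strongest region of Atp6v0d2 was intronic, 27800 bp into the gene (13.4 and 11.0), and 4424 bp wide. Its ubiquitous counterpart Atp6v0d1 had a single region of 2544 bp with folds of 9.39 and 7.70. Atp6v0c, which forms the proton-carrying ring, had promoter folds of 10.7 and 7.70 in a region of 4709 bp. The summit of that region lay 2375 bp downstream of a TSS. A stronger region of Atp6v0c lay 2271 bp upstream (13.4 and 10.0), the window shown above. The isoforms Atp6v0d2 and Atp6v0d1 thus differed in number of regions, 16 and 1, at gene lengths of 45.8 and 41.6 kb.

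Some V-ATPase regions lay far from the gene they were nearest to. Atp6v1b2 had 7 regions between 65739 and 82292 bp upstream, with no other protein-coding TSS nearer. A TSS of Slc18a1 lay within 1 kb of its promoter region, so this assignment rests on a small difference in distance. The strongest of them, 80631 bp upstream (chr8:69007771-69008583), had folds of 16.0 and 11.7. It was stronger in both libraries than the promoter region of the gene.

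Among membrane and accessory genes, Cd68, a heavily glycosylated protein of macrophage lysosomes, had a region that covered the whole gene (chr11:69662157-69667029), shared by position with Mpdu1. It was 4873 bp wide and its summit was 183 bp upstream of the TSS. Scarb2, the receptor that carries glucocerebrosidase to the lysosome, had promoter folds of 13.2 and 7.70. Npc2 had 12.7 and 6.36 in a region that lay within 1 kb of the TSS of Isca2. In both genes the fold in replicate 1 was well above that in replicate 2. Grn, which encodes the granulin precursor progranulin, had 9.13 and 7.70.

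The other genes of this class had lower promoter folds in at least 1 library. Npc1, the cholesterol exporter, had 5.33 and 8.03, Mcoln1, a calcium channel of the lysosomal membrane, had 5.58 and 4.90, and Lamp1, a main glycoprotein of that membrane, had 5.33 and 5.61. Psap, the precursor of the saposins that assist sphingolipid hydrolysis, had 5.33 and 4.69 at its strongest promoter region. Psap nevertheless had 19 regions, the largest number among the members, from 24828 bp upstream to 20973 bp downstream, and none of its neighbors was nearer to them. Its strongest were at 8512 bp upstream (6.85 and 8.03) and in an intron (12.9 and 6.69). Cd63 had no peak at its promoter in either list.

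**Figure D3:**
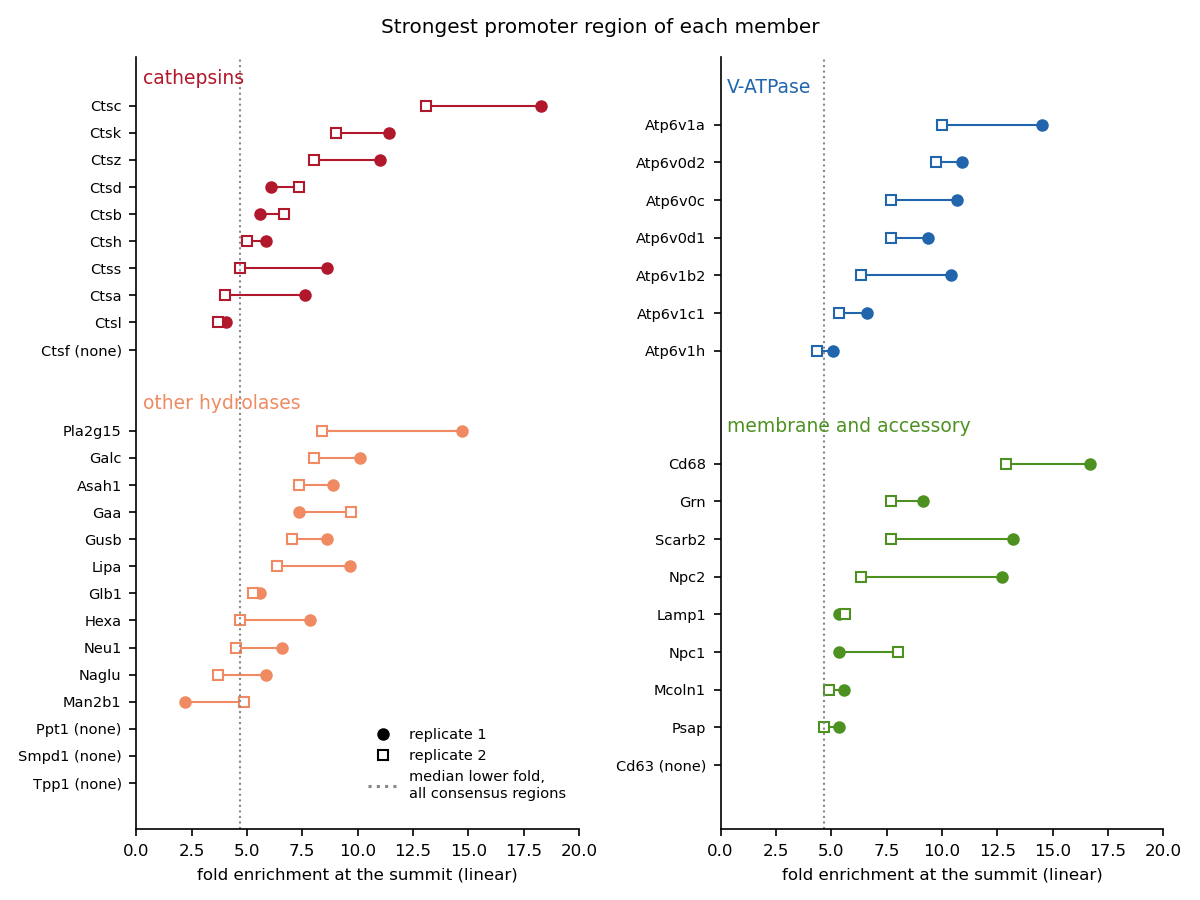
Fold enrichment at the summit of the strongest promoter region of each member in replicate 1 (filled circles) and replicate 2 (open squares), by class, with members that have no promoter region listed as none. The dotted line is the median lower fold of all consensus regions (4.69), which 26 of the 35 members exceeded in both libraries.

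The classes overlapped widely in strength. The median lower fold of the promoter regions was 5.58 in cathepsins, 6.36 in other hydrolases, 7.70 in V-ATPase subunits and 5.85 in membrane and accessory genes, over ranges of 3.68 to 13.1, 2.19 to 8.37, 4.35 to 10.0 and 4.69 to 12.9. It was 6.36 over the 35 members and 5.58 over all genes with a promoter region. Replicate 1 had the higher fold at 29 of the 35 members and replicate 2 at 6. Across the 35 regions the folds of the libraries had a Spearman correlation of 0.705, as a description over genes measured in the same libraries. The correlation was 0.592 over all 196 member regions and 0.552 over all 25454 consensus regions. At 26 of the 35 members (74.3%) both libraries exceeded the consensus median, beside 67.8% of all genes with a promoter region.

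Values for the width of the promoter regions and for the strongest region at any position were also taken by class. Median promoter region width was 2544 bp in V-ATPase subunits, 1361 bp in cathepsins, 816 bp in other hydrolases and 780 bp in membrane and accessory genes, and 644.5 bp over all genes with one. For the strongest region at any position, the median lower fold was 10.0 in V-ATPase subunits, 7.03 in cathepsins, 7.10 in other hydrolases and 6.94 in membrane and accessory genes, beside 5.84 over all genes with any region. It was at the promoter in 16 of the 37 members with a region, namely 4 of 9 cathepsins, 6 of 13 other hydrolases, 3 of 7 V-ATPase subunits and 3 of 8 membrane and accessory genes. V-ATPase genes were also the longest, with a median of 41.6 kb against 11.8, 16.3 and 16.2 kb in the other classes. The part of gene length in these differences was not tested, and no class difference was tested, because the genes are not replicates.

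The promoter summits were spread around the TSS. In 14 of the 35 members (40%) the summit of the strongest promoter region lay within 250 bp of a TSS, beside 60.3% of all genes with a promoter region, and in 12 it lay over 1 kb away in a region that reached the window. Of these 12 regions, 8 were wider than 1 kb. It was upstream in 18 members and downstream in 17. The summits of both libraries fell within 100 bp of each other in 17 members (48.6%), beside 55.5% of all genes with a promoter region. The gap was largest in Atp6v0c, at 1906 bp, followed by Atp6v0d1 (1325 bp) and Scarb2 (1221 bp), all with wide regions. For these the position of the strongest binding was not the same in both libraries. When only peaks with summits within 100 bp of each other counted as shared, 23 of the 40 members kept a promoter region, beside 22.6% of all genes, and the V-ATPase count went from 7 to 4 and the membrane and accessory count from 8 to 4. The cathepsin count went from 9 to 6 in that setting. With a −log10 q of at least 5 in both lists, the counts went from 11 to 7 in other hydrolases and from 9 to 6 in cathepsins.

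Some members had several regions. At least 2 promoter regions were present at 11 members (27.5%), beside 10.5% of all genes. Among genes with a promoter region the shares were close, at 31.4% of the 35 members and 31.1% of all such genes. At least 15 regions, a number chosen after the counts were seen, were present at Psap, Ctsc and Atp6v0d2, beside 0.892% of all genes (194). Of the 196 regions, 19 were wider than 2 kb, beside 6.01% of all consensus regions.

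Motifs were searched within 100 bp of the summit of the strongest region of the 37 members with one, on both strands, and read beside the same windows of all 25454 consensus regions. TGGGAA was found in 5 members (13.5%), namely Ctsb, Ctsh, Asah1, Cd68 and Npc2, and in 18.8% of all regions. The longer form GTGGGAA, which contains it, was found in 0 members and in 4.64% of all regions. CACGTG was found in 4 members (10.8%), Ctsa, Gaa, Glb1 and Atp6v1a, and in 4.88% of all regions. The CLEAR forms TCACGTGA and GTCACGTG were each found in only 2 members (5.41%), beside 0.507% and 1.29% of all regions. A match is a description of the letters and not evidence of a bound factor.

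The remaining motifs were unevenly present. TGANTCA was found in 9 members (24.3%), among them Lipa, Hexa, Neu1, Atp6v1b2, Psap and Cd68, and in 9.30% of all regions. GAGGAAGT was found in 5 members (13.5%), Ctsc, Ctsd, Gusb, Asah1 and Atp6v0d2, and in 6.53% of all regions. AGGTCA was found in 4 members (10.8%) and 13.3% of all regions, TTCNNNGAA, the STAT motif, in 3 (8.11%) and 7.38%, and CCGCCC in 3 (8.11%) and 14.3%. Asah1 held 4 of them, the RBPJ core and the ETS, nuclear receptor and STAT motifs. Counts of this size rest on few genes.

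**Figure D4:**
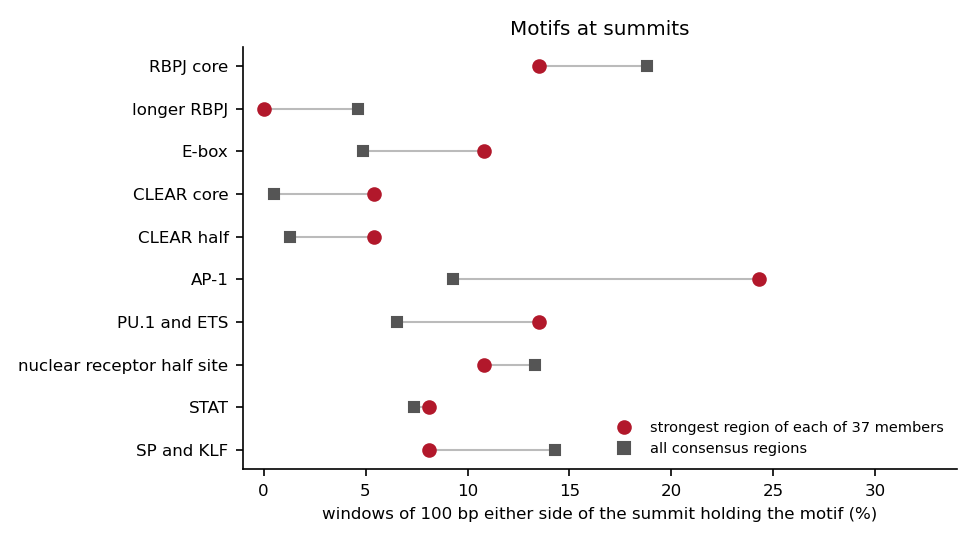
Share (%) of windows of 100 bp on either side of the summit that hold each motif, for the strongest region of the 37 members (red circles) and for all consensus regions (gray squares). AP-1, PU.1 and ETS, E-box, CLEAR and STAT matches lie further right for the members. Both RBPJ forms and the nuclear receptor and SP and KLF matches lie further left. Member windows were chosen for strength, whereas the consensus windows were not.

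E-boxes were also counted in promoter sequence fixed by the gene and not by the summit. In the RefSeq promoter sequences, 250 bases before to 50 after each start, CACGTG was found in 11 of the 32 members with an entry. These 32 members had 36 entries, of which 11 held CACGTG, beside 7.15% of all 32851 promoters. The extension TCACGTGA was found in 5 members (5 entries), Ctsa, Ctsd, Mcoln1, Atp6v0d1 and Atp6v1a, and in 0.974% of all promoters. GTCACGTG was found in 7 members (7 entries) and in 2.25% of all promoters. These forms contain CACGTG and so overlap it. The TCACGTGA sites of the 5 members are printed on the strand of the gene, with the site in capitals and its position in GRCm38.
Ctsa, chr2:164833760-164833767: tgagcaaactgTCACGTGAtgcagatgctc
Ctsa, chr2:164833777-164833784: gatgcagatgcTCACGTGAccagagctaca
Ctsd, chr7:142387919-142387926: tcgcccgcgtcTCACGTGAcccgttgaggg
Mcoln1, chr8:3500473-3500480: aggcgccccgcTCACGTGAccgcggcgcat
Atp6v0d1, chr8:105566061-105566068: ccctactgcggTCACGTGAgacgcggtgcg
Atp6v1a, chr16:44139384-44139391: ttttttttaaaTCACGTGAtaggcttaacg

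All of these sites lay inside the promoter region of their gene, at distances from its summit, counted from the lowest coordinate of the site, that differed widely. Ctsa had a pair of sites, 36 and 19 bp from the summit, at either side of the RefSeq start. Although its summit was 895 bp from the nearest GENCODE start, it thus lay close to the RefSeq one. The site was 77 bp from the summit in Atp6v1a, 120 bp in Ctsd and 188 bp in Mcoln1, but 1311 bp in Atp6v0d1. Over the 11 members, 17 CACGTG sites were found, of which 10 in 7 members lay inside a promoter region and 5 within 100 bp of its summit. Lamp1 had 4 sites, 1157 to 1203 bp from the summit of its strongest promoter region, and they lay between its regions chr8:13158737-13159009 and chr8:13159906-13160610. A peak of replicate 1 alone (chr8:13159106-13159283, fold 7.10), the strongest at this promoter in that list, covered 3 of the 4 sites. Ctsf had an E-box and no promoter peak.

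Promoter regions were also counted at 58 other lysosome genes. Of these, 44 had a promoter region (75.9%), namely 2 of 4 other cathepsins, 15 of 19 hydrolases, 9 of 13 V-ATPase subunits, 11 of 12 membrane or accessory genes and 7 of 10 genes of sorting and regulation. Among the highest lower folds were those of Acp2, an acid phosphatase (12.7 and 14.1), Cd164, a sialomucin (16.0 and 11.4), and Fuca1, a fucosidase (13.3 and 10.4). No region was assigned to 9 of the 58, among them the sulfatase gene Arsa and the V-ATPase genes Atp6v0b, Atp6v1b1 and Atp6v1c2. Atp6v1b1 and Atp6v1c2 had no promoter peak in either list, whereas Arsa had 1 in replicate 1 and Atp6v0b had 1 in replicate 2.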

How the data were processed

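Per the submitters' processing notes and the methods, the authors demultiplexed reads by CASAVA and bcl2fastq (version 2.20.0.422), trimmed them with cutadapt, aligned them to mm10 with Bowtie2, filtered them with SAMtools and called peaks per library with MACS3 against input at q 0.05. The deposited lists give a fold enrichment over background at the summit, a −log10 p, a −log10 q and a display score per peak. Fold described the peaks, −log10 q filtered them in alternatives, and −log10 p and the score were not used. Read numbers were not among the values used, so the depth behind a fold was not taken into account. With 2 libraries the spread of a fold is known only as a pair of values.

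Overlapping peaks (at least 1 bp) were merged, and regions with a peak of each library formed the consensus. TSSs came from the basic transcripts of GENCODE M21 on GRCm38, and no peak ran past a GRCm38 chromosome end. A region was assigned to a gene within 1 kb of a TSS, in the gene body, or by nearest protein-coding TSS from the summit with the higher fold. The strongest region had the highest lower fold of both libraries. Distances run to the nearest TSS of the member. Promoter sequences were RefSeq entries on GRCm38.p6. The steps were tested on simulated peaks. Analyses used pandas 2.3.3, numpy 2.4.6, pysam 0.24.0, SciPy 1.17.1 and matplotlib 3.10.9 under Python 3.11.15.

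The members, classes and other lists were chosen with earlier results of these data known, so no test was run. All members could be named, and of the other lysosome genes the 4 highest in lower promoter fold, of which 1 is not reported here, and the first 4 in alphabetical order without a region. Alternatives left out a library, raised the −log10 q limit, required close summits, equalized list lengths or changed windows, transcripts and assignment.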

Additional observations from a re-analysis of the deposited data

How the results depend on the processing

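The promoter count of 35 members fell to 23 when the summits of both libraries had to lie within 100 bp, with 4 of 7 V-ATPase subunits and 4 of 9 membrane or accessory genes, while the share of all genes went to 22.6%. With a −log10 q of at least 5 in both lists, 7 other hydrolases kept a promoter region (26 members, 24.0% of all genes). From a single list the promoter count was 36 to 38, the other hydrolases 12 to 14 and the share of all genes 37.5% to 46.1%. Cathepsins with a promoter region went from 9 to 6 both with close summits and with the −log10 q limit. The other settings kept every count over the members or a class within 1.5 times its value. Of the 40 members, 18 had a promoter region under all 9 promoter alternatives and 2 (Ctsf and Cd63) under none. Ctsl and Man2b1 lost theirs when the replicate 1 list was shortened to the length of replicate 2, and Ppt1 gained one in a window of 3 kb.

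No paired analysis was possible because the inputs, which share replicate numbers with the RBPJ libraries, had no values of their own here and no test was run. There were 2 libraries of 1 condition, and neither their read depth nor expression or chromatin accessibility was part of the values used.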
